A study of Homo sapiens with 9 samples.

Results

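The mitochondrial ribosomal protein genes were followed through a differentiation of the H9 human embryonic stem cell (hESC) line towards perivascular progenitor cells. Members were taken as every gene whose annotated symbol starts with MRPL or MRPS and a digit, with 1 probe per gene, the one with the highest mean over the 9 arrays in the authors' log2 table. The rule found 103 probes of 77 genes among 11991 genes tested, and all 77 passed the detection filter. They comprise 76 protein-coding genes, to which all counts refer, and the antisense RNA MRPL20-AS1. Of the 76 proteins, 50 belong to the large subunit and 26 to the small subunit. MRPL27 and MRPS36 were not analysed here.

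Total RNA was hybridised to Illumina human expression BeadChips, on which beads carry an oligonucleotide probe for each transcript. Undifferentiated H9 cells grown on mouse embryonic fibroblast feeders with basic fibroblast growth factor (4 ng/ml) formed the hESC group. The second group were embryoid bodies, which are floating cell aggregates, made from H9 and kept for 6 days with bone morphogenetic protein 4 (BMP4, 40 nM). Perivascular progenitor cells, the group at the end of the differentiation, were the collagen-adherent, passaged cells of dissociated day 6 embryoid bodies, grown in the endothelial medium EGM2-MV. Each group had 3 arrays. All 3 groups derive from this 1 cell line, and the labels do not say whether the 3 arrays of a group came from separate cultures, so p-values measure only the spread between these arrays.

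Mitochondria translate the few proteins encoded in their own DNA, all of them subunits of the oxidative phosphorylation complexes, on ribosomes of their own. The ribosomal RNA of these mitoribosomes is made inside the organelle, whereas all their proteins are encoded in the nucleus, made in the cytosol and imported. Some of these proteins have a relative in bacterial ribosomes, and others occur only in mitochondria. Pluripotent stem cells are known for a metabolism that leans on glycolysis, with few and immature mitochondria, which changes during differentiation.

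Between 17964 and 21172 of 47323 probes were detected per array. The 76 proteins had probe means from 7.62 to 13.2 on the normalized log2 scale, against a lowest detected signal of 5.83 to 6.12 per array, and all 76 were detected on all 9 arrays. All 6 pluripotency markers tested fell and all 6 perivascular and mesenchymal markers tested rose from hESC to progenitors. POU5F1, a core factor of pluripotency, averaged 12.85 ± 0.06 in hESC and 13.22 ± 0.04 in embryoid bodies (SD, n = 3), so the embryoid bodies kept it. It was not well above background on any progenitor array and at least 110-fold lower there than in hESC. PDGFRB, a receptor of perivascular cells, averaged 7.38 ± 0.14 in hESC, 5.95 ± 0.41 in embryoid bodies and 12.0 ± 0.27 in progenitors (SD, n = 3). Its embryoid body mean was near the lowest detected signal of those arrays, 5.97 to 6.03. Arrays 1 and 2 of hESC, all embryoid body arrays, and arrays 1 and 3 of the progenitors were close to each other, with 2 to 44 genes apart by at least 2-fold. hESC array 3 differed by that much from arrays 1 and 2 in 445 and 426 genes, and progenitor array 2 from arrays 1 and 3 in 657 and 600 genes. The summed log2 level of the 6 pluripotency markers was 73.1 on hESC array 3, against 77.9 on each of hESC arrays 1 and 2. It was 78.0 to 78.3 on the embryoid body arrays. What sets hESC array 3 apart was not tested. None of the 76 mitochondrial ribosomal protein genes was 2-fold apart within a group. In such bulk samples, fewer cells of a type and less RNA per cell cannot be told apart.

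In the progenitors, mitochondrial ribosomal protein genes were more often lower than higher compared with hESC. Of the 76 genes, 40 fell (52.6%, where 37.5% of all genes tested were called lower) and 9 rose (11.8%, where 30.9% of all genes were called higher), and 27 did not pass the test (limma, adjusted p under 0.05). Their median log2 change was -0.28, against -0.07 over all genes tested. The changes were small. The median size of the log2 change was 0.38 for the members and 0.65 over all genes, and 5 members (6.58%) passed with at least a 2-fold change, against 33.7% of all genes. Groups did not overlap for 54 of the 76 members (71.1%), against 71.4% of all genes.

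**Figure D1:**
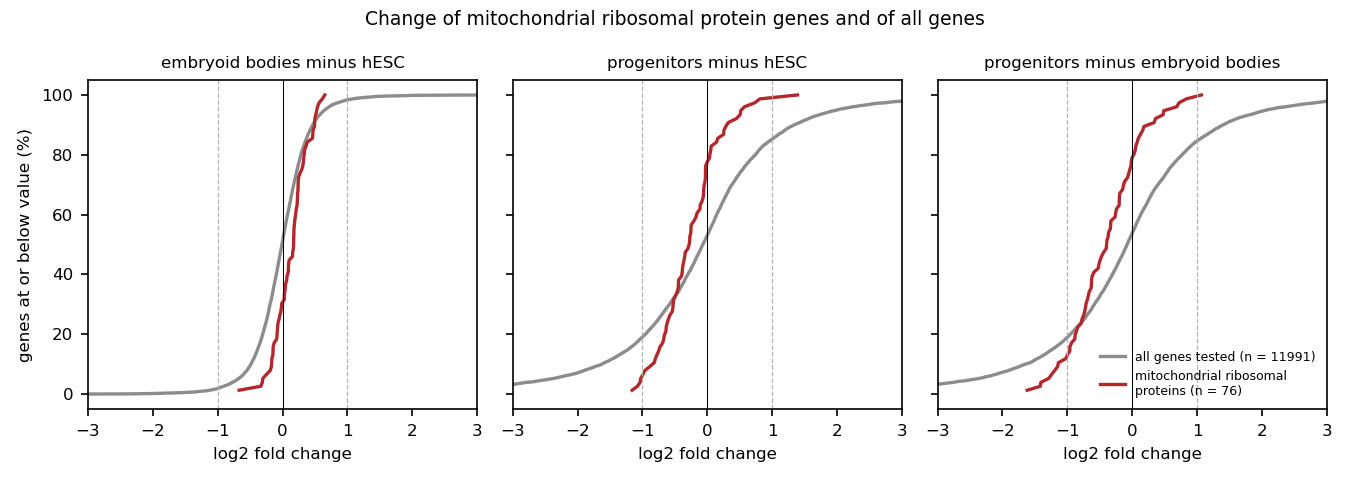
Cumulative share of genes (y axis, %) at or below each log2 fold change (x axis), with a panel for each comparison. The red line stands for the 76 mitochondrial ribosomal protein genes and the grey line for all 11991 genes tested; dashed lines mark a 2-fold change. The red line climbs within a narrower range than the grey line in the comparisons with the progenitors and lies to its left near 0, with medians of -0.28 and -0.39, while in embryoid bodies minus hESC its median of 0.17 lies 0.18 above that of all genes. With median scaling both medians fall, to -0.16 and -0.28, and the members stay above by 0.13.

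In the quantile-normalized values, the 4 members that fell at least 2-fold all encode large-subunit proteins. MRPL11, the relative of the bacterial protein at the base of the stalk that recruits translation factors, read 12.26, 12.29 and 12.43 on the hESC arrays, 12.58, 12.55 and 12.58 on the embryoid body arrays and 11.32, 10.90 and 11.27 on the progenitor arrays. All progenitor arrays were well below the other 6, and the groups did not overlap. MRPL11 fell by 1.16 ± 0.12 (log2, SE) from hESC to progenitors, 2.23-fold (adjusted p = 2.62e-05). Its other probes gave like changes of -1.14 and -1.10.

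MRPL15, a relative of a bacterial large-subunit protein, read 10.38, 10.21 and 10.27 in hESC, 10.84, 10.80 and 10.84 in embryoid bodies and 9.38, 8.79 and 9.46 in progenitors. Embryoid bodies were highest on every array and progenitor array 2 lowest. The change from hESC to progenitors was -1.08 ± 0.16 (adjusted p = 0.000316). MRPS30 carries a small-subunit name, although structures of the mammalian mitoribosome place it in the large subunit. It read 12.02, 11.98 and 12.08 in hESC, 12.28, 12.24 and 12.17 in embryoid bodies and 11.06, 10.77 and 11.13 in progenitors, without overlap between progenitors and the other groups. It fell by 1.04 ± 0.11 (adjusted p = 2.75e-05). MRPL50, a large-subunit protein with no bacterial relative, read 11.89, 11.87 and 11.80 in hESC, 11.93, 12.04 and 12.09 in embryoid bodies and 10.98, 10.54 and 10.97 in progenitors. The progenitor arrays again lay apart below the rest, with a change of -1.03 ± 0.13 (adjusted p = 8.11e-05).

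Further falls were smaller than 2-fold. MRPL32, which the m-AAA protease of the inner membrane trims to its mature form, read 12.72, 12.61 and 12.78 in hESC and 11.81, 11.71 and 11.71 in progenitors, a change of -0.96 ± 0.09 (adjusted p = 1.5e-05). The progenitor arrays were close to each other and far below hESC. MRPL42, a protein known only from mitochondria, changed by -0.80 ± 0.15 (adjusted p = 0.000934), and MRPL3, the relative of a bacterial protein near the peptidyl transferase centre, by -0.78 ± 0.13 (adjusted p = 0.000657). In both genes the progenitor arrays lay below all hESC arrays.

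Among small-subunit proteins, none fell 2-fold in the quantile-normalized values, and the largest falls were those of MRPS26, MRPS9 and MRPS34. Median scaling took MRPS26 and MRPS34 past 2-fold, with falls of 1.14 and 1.10. MRPS26 is specific to mitochondria. It read 11.07, 11.14 and 11.06 in hESC and 10.30, 9.84 and 10.15 in progenitors, a change of -0.99 ± 0.12 (adjusted p = 6.59e-05). MRPS9, which has a bacterial relative, read 11.59, 11.71 and 11.86 in hESC and 10.91, 10.66 and 10.93 in progenitors, a change of -0.89 ± 0.12 (adjusted p = 0.000134). The mitochondria-specific MRPS34 was a dim probe with values of 8.38, 8.23 and 8.52 in hESC and 7.57, 7.77 and 7.33 in progenitors, a change of -0.82 ± 0.14 (adjusted p = 0.000658). In these 3 genes hESC and progenitor arrays did not overlap, and embryoid bodies were close to hESC, with changes of 0.16, 0.05 and -0.07 that did not pass the test.

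MRPS12, the relative of a bacterial decoding-centre protein, read 12.97 to 13.09 in hESC, 12.88, 12.90 and 12.77 in embryoid bodies and 12.62, 12.13 and 12.69 in progenitors, and fell by 0.54 ± 0.14 from hESC to progenitors (adjusted p = 0.00828). MRPS6, also of bacterial ancestry, read 13.47, 13.48 and 13.40 in hESC, 13.15, 13.14 and 13.05 in embryoid bodies and 12.85, 12.60 and 12.91 in progenitors. It was thus lower in each later group without overlap, and fell by 0.66 ± 0.10 from hESC to progenitors (adjusted p = 0.000314).

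Against this direction, 9 members rose in the progenitors. MRPL53, a mitochondria-specific protein of the large subunit, read 8.95, 8.93 and 8.60 in hESC, 9.15, 9.19 and 9.11 in embryoid bodies and 10.15, 10.26 and 10.25 in progenitors. All 3 progenitor arrays, including array 2, were far above every other array. It rose by 1.39 ± 0.11, 2.62-fold (adjusted p = 4.53e-06), and was the only member to rise 2-fold.

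MRPS24, whose bacterial relative sits at the entry of the messenger RNA channel, read 11.90, 11.92 and 11.97 in hESC, 11.97, 11.81 and 11.92 in embryoid bodies and 12.79, 12.66 and 12.76 in progenitors. hESC and embryoid bodies overlapped, and the progenitors stood above both, with a change from hESC of 0.81 ± 0.08 (adjusted p = 2.79e-05). MRPL24, a large-subunit protein related to a bacterial protein near the exit of the peptide tunnel, read 10.70, 10.59 and 10.73 in hESC, 10.65, 10.73 and 10.76 in embryoid bodies and 11.64, 10.96 and 11.62 in progenitors. Progenitor array 2 lay much closer to hESC than arrays 1 and 3 did. The change was 0.73 ± 0.17 (adjusted p = 0.00415), and a further probe of the gene gave 1.05.

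The other rises were smaller. MRPL40 rose by 0.57 ± 0.11 (adjusted p = 0.00105), MRPL28 by 0.52 ± 0.12 (adjusted p = 0.00357) and MRPS10 by 0.51 ± 0.11 (adjusted p = 0.00311). MRPL28 and MRPS10 have bacterial relatives, and MRPL40 has none. MRPS22, a mitochondria-specific small-subunit protein, read 11.58, 11.59 and 11.57 in hESC and 12.17, 11.71 and 12.21 in progenitors and rose by 0.45 ± 0.13 (adjusted p = 0.014). MRPL33 rose by 0.32 ± 0.08 (adjusted p = 0.00455), but its other probe gave -0.13 (adjusted p = 0.304), and with median scaling the calls of MRPL28, MRPL33, MRPS18B and MRPS22 were lost. The call of MRPS22 was also lost without progenitor array 1 or 3.

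**Figure D2:**
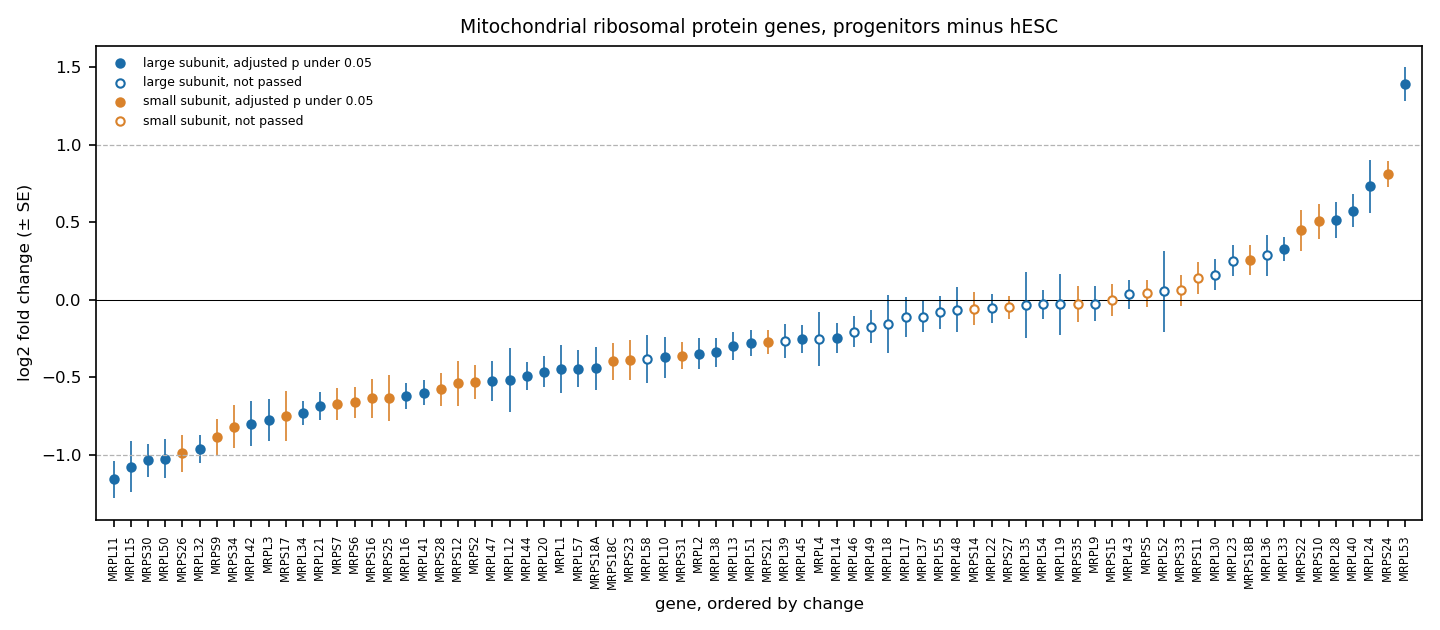
Log2 fold change from hESC to progenitors (y axis, ± SE of the fit over 3 arrays a group) for each of the 76 mitochondrial ribosomal protein genes (x axis), ordered by change. Blue stands for the large and orange for the small subunit, filled points passed the test at an adjusted p under 0.05 and dashed lines mark 2-fold. The order runs from MRPL11 at -1.16 to MRPL53 at 1.39, and MRPL53 stands apart from the next gene, MRPS24, at 0.81.

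**Figure D3:**
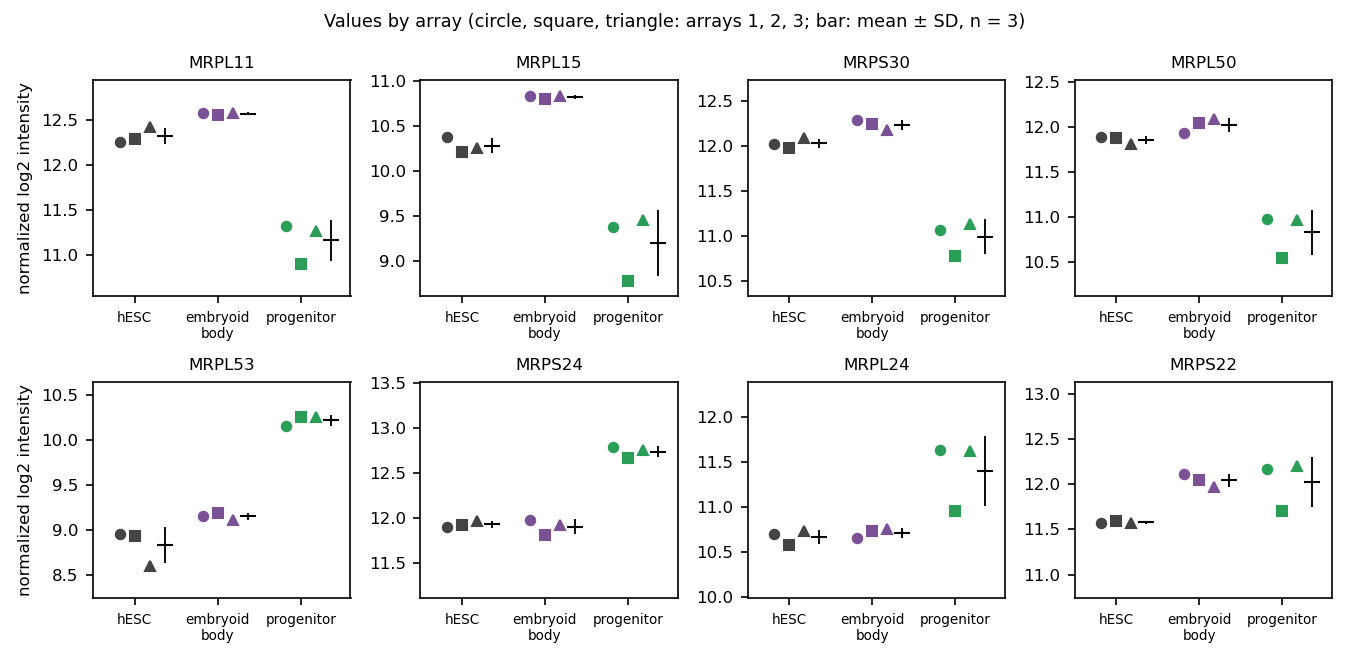
Normalized log2 intensity (y axis) of 8 mitochondrial ribosomal protein genes by group (x axis), with a point for each array and a bar for the mean ± SD (n = 3). In the upper row, MRPL11, MRPL15, MRPS30 and MRPL50, all progenitor points lie below the others and the square of progenitor array 2 is lowest; in the lower row, MRPL53, MRPS24 and MRPL24 are highest in progenitors, and MRPS22 is as high in embryoid bodies as in progenitors.

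Subunits and ancestry classes were read against the same background from hESC to progenitors, where 37.5% of all genes were called lower and 30.9% higher. Of 50 large-subunit genes, 25 fell (50%) and 5 rose (10%), with a median change of -0.26. Of 26 small-subunit genes, 15 fell (57.7%) and 4 rose (15.4%), with a median of -0.37. Proteins with a bacterial relative had 26 falls (55.3%) and 6 rises (12.8%) among 47, with a median of -0.30. Mitochondria-specific proteins had 14 falls (48.3%) and 3 rises (10.3%) among 29, with a median of -0.27. The differences between these classes were not tested.

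Some pairs of partners can be set side by side. MRPL12 forms the stalk on which factors dock, is held by MRPL10, and also binds the mitochondrial RNA polymerase. MRPL12 read 9.85, 9.89 and 9.75 in hESC, 9.96, 10.02 and 10.02 in embryoid bodies and 9.50, 8.76 and 9.67 in progenitors. Progenitor array 2 was far below the other progenitor arrays, and the change of -0.52 ± 0.20 (adjusted p = 0.0475) was lost without any 1 of the hESC or embryoid body arrays and ranged from -0.70 to -0.24 as single arrays were left out. MRPL10 changed by -0.37 ± 0.13 (adjusted p = 0.0312), while its dimmer probe gave 0.18 (adjusted p = 0.0992). MRPL45, which tethers the mitoribosome to the inner membrane, changed by -0.25 ± 0.09 (adjusted p = 0.0281), and its dimmer probe gave 0.16 (adjusted p = 0.376).

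The 3 paralogs of the bacterial protein S18 did not share a direction. MRPS18A, which sits in the large subunit, read 10.04, 10.02 and 9.91 in hESC and 9.67, 9.22 and 9.75 in progenitors and fell by 0.44 ± 0.14 (adjusted p = 0.0183). MRPS18C read 11.81, 11.73 and 11.61 in hESC and 11.35, 11.09 and 11.52 in progenitors and fell by 0.40 ± 0.12 (adjusted p = 0.0143). MRPS18B read 10.71, 10.66 and 10.65 in hESC and 10.98, 11.03 and 10.79 in progenitors and rose by 0.26 ± 0.10 (adjusted p = 0.0384), with -0.09 (adjusted p = 0.427) from its other probe. Arrays of hESC and progenitors did not overlap in any of the 3 genes, yet each of these calls was lost when some single array was left out.

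MRPL20-AS1, the antisense RNA, read 10.78, 10.76 and 10.57 in hESC, 10.97, 10.90 and 10.79 in embryoid bodies and 10.03, 10.44 and 10.17 in progenitors. It fell by 0.49 ± 0.12 from hESC to progenitors (adjusted p = 0.00596), next to a fall of its protein-coding partner MRPL20 by 0.46 ± 0.10 (adjusted p = 0.00247), which was named after its value was seen. The probes' strand was not tested.

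Leaving out 1 array at a time gave 33 to 39 falls and 7 to 11 rises between hESC and progenitors, and 39 of the 49 calls held without any array. Over all genes, these fits called 63.7% to 70.4% in either direction, against 68.5% with all arrays. Without progenitor array 2, 38 fell and 11 rose. When the near-identical arrays of a group were averaged into 1 column each, which left 5 columns and 2 residual degrees of freedom, 18 genes fell and 2 rose. That fit called 47.4% of all genes in either direction.

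Promoters are shown for the genes with the largest changes in each direction, since these genes moved apart within a family whose members take part in the same particle. The RefSeq table (GRCh38.p14) held a promoter for 68 of the 76 genes, and not for MRPL2, MRPL10, MRPL13, MRPL15, MRPL21, MRPL23, MRPL35 and MRPS28. Each line gives the strand of the gene 5′ to 3′ from 150 bases before to 50 bases after the annotated start, with matches to AAGATGG or CCGGAAG, or their reverse complements, in capitals. MRPL11 (chr11:66438799-66438998, minus strand), MRPS30 (chr5:44808797-44808996, plus strand) and MRPL50 (chr9:101398569-101398768, minus strand) fell. MRPL53 (chr2:74472631-74472830, minus strand), MRPS24 (chr7:43869468-43869667, minus strand) and MRPL24 (chr1:156741039-156741238, minus strand) rose.
MRPL11: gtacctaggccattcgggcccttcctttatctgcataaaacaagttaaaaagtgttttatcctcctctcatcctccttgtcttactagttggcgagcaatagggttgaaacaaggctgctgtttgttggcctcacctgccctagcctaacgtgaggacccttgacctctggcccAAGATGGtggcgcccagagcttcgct
MRPS30: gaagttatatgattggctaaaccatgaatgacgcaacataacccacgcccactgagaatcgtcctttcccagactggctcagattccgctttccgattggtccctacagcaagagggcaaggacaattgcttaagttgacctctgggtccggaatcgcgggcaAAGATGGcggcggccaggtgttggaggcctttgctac
MRPL50: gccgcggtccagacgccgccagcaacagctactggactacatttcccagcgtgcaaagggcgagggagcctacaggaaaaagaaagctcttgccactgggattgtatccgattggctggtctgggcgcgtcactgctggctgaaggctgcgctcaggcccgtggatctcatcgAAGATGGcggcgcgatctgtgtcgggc
MRPL53: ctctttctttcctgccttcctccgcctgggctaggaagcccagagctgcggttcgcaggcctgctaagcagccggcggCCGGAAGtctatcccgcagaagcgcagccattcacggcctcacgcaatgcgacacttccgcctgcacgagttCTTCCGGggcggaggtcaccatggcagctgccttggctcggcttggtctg
MRPS24: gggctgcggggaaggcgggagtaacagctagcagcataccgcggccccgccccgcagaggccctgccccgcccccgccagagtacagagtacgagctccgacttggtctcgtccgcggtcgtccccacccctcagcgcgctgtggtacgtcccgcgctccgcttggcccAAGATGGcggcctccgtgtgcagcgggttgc
MRPL24: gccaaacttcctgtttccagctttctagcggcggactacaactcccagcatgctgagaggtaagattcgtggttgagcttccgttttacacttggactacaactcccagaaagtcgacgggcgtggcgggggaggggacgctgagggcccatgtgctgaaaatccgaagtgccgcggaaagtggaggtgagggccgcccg

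The letters AAGATGG, which match the core bound by the factor YY1, stood in 3 of these promoters among the falling genes and in MRPS24 among the rising ones. In all 4 they lay after the annotated start, at positions 14 to 25. MRPL53 instead held the ETS family letters CCGGAAG, once on each strand, and MRPL24 held neither. Letters were searched on both strands of the table's windows, from 250 bases before to 50 after the start. AAGATGG stood in 23 of the 68 promoters (33.8%), against 7.48% of 9538 promoters of protein-coding genes tested here. Of these 23 promoters, 16 had a match after the start. AAGATGG contains the letters of a start codon, and whether the matches are start codons was not tested. CCGGAAG stood in 28 promoters (41.2%, against 18.5%), and the motifs share the letters AAG where CCGGAAG is followed by ATGG.

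Other promoter letters were less frequent. GCGCATGC, for the factor NRF1, stood in 6 promoters (8.82%, against 5.49%). CCAAT, for NF-Y, stood in 19 (27.9%, against 36.9%) and TATAAA, the TATA box, in 2 (2.94%, against 5.97%). Promoters of cytosolic ribosomal protein genes held AAGATGG in 9 and CCGGAAG in 21 of 60 windows, and those of oxidative phosphorylation subunits held them in 15 and 19 of 61. Change and letters were set side by side as a description. The median change from hESC to progenitors was -0.34 in the 23 genes with AAGATGG and -0.25 in the 45 without, and -0.31 in the 28 genes with CCGGAAG and -0.25 in the 40 without. For GCGCATGC the order was the other way, with -0.08 in the 6 genes with it and -0.27 in the 62 without.

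From embryoid bodies to progenitors, the members were again more often lower than higher. Of the 76 genes, 46 fell (60.5%, against 37.8% of all genes called lower) and 8 rose (10.5%, against 31.2% called higher), with a median change of -0.39 against -0.08 over all genes. At least 2-fold, 9 fell and 1 rose, together 13.2% of the members against 34.2% of all genes. In either direction 54 passed (71.1%, against 69%), and groups did not overlap for 58 members (76.3%, against 74.8%). This comparison shares the progenitor arrays with that of progenitors and hESC. Which of them had more falls, and the lower median, depended on the scaling. With median scaling, 37 genes fell from embryoid bodies to progenitors, with a median of -0.24 against 0.00 over all genes. From hESC to progenitors 46 fell, with a median of -0.40 against -0.24 over all genes. Of all genes, 67.1% and 68.7% were called in either direction in these fits, in that order. Relative to all genes, the members' median was lower from embryoid bodies to progenitors in both scalings. It was -0.31 against -0.21 from hESC to progenitors in the quantile-normalized values, and -0.24 against -0.16 with median scaling.

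MRPL15 fell by 1.62 ± 0.16, 3.07-fold, between embryoid bodies and progenitors (adjusted p = 2.21e-05). MRPL42 read 10.66, 10.50 and 10.73 in hESC, 11.36, 11.23 and 11.15 in embryoid bodies and 9.98, 9.51 and 10.01 in progenitors, so embryoid bodies were highest and progenitors lowest without overlap. It fell by 1.42 ± 0.14 between embryoid bodies and progenitors (adjusted p = 2.39e-05). MRPS25, a mitochondria-specific small-subunit protein, had the same order, with 8.92, 8.70 and 8.73 in hESC, 9.43, 9.50 and 9.37 in embryoid bodies and 7.90, 8.48 and 8.06 in progenitors. Here progenitor array 2 was the highest of its group. MRPS25 fell by 1.28 ± 0.15 (adjusted p = 4.87e-05). MRPL11, MRPS30, MRPL50, MRPS26 and MRPL32 fell by 1.41, 1.24, 1.19, 1.15 and 1.14.

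MRPL53 rose by 1.07 ± 0.11 from embryoid bodies to progenitors (adjusted p = 2.4e-05), and MRPS24 by 0.84 ± 0.08 (adjusted p = 2.19e-05). MRPL52, a large-subunit protein found only in mitochondria, read 8.31, 8.37 and 9.08 in hESC, 7.87, 7.98 and 7.89 in embryoid bodies and 8.96, 8.10 and 8.85 in progenitors. hESC array 3 and progenitor array 2 each departed from their groups, and the rise of 0.72 ± 0.26 (adjusted p = 0.0322) was lost without any 1 of 5 arrays. MRPL24 rose by 0.69, MRPL33 by 0.49, MRPS10 by 0.48, MRPL28 by 0.36 and MRPS18B by 0.34. Other probes gave 0.73 for MRPL24, 0.03 for MRPL33 (limma adjusted p = 0.797) and -0.10 for MRPS18B (adjusted p = 0.369). The call of MRPL28 was lost without any 1 of 3 arrays. With single arrays left out 41 to 45 genes fell and 6 to 10 rose, and 46 of the 54 calls held without any array. With the near-identical arrays averaged, 17 fell and 2 rose, where 36.8% of all genes were called in either direction.

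From hESC to embryoid bodies, the changes were smaller, and the members' median was above that of all genes. In the quantile-normalized values, 16 genes rose (21.1%, against 10.7% of all genes called higher) and MRPS6 alone fell (1.32%, against 11% called lower), and 59 did not pass the test. The median change was 0.17, against -0.01 over all genes, a difference of 0.18. Median scaling of the arrays moved the median of all genes to -0.28 and that of the members to -0.16, so the members were still 0.13 above all genes. On that scale, 17 members fell and 0 rose in limma (25 of 76 had an unadjusted p under 0.05). Of all genes, 38.6% were called there in either direction. MRPL52 fell 2-fold on that scale, by 1.00 (limma adjusted p = 0.0123). The quantile-normalized values gave no member that passed with a 2-fold change, against 1.5% of all genes higher and 1.59% lower (3.09% together). In them all 76 changed by less than that, and groups did not overlap for 51 genes (67.1%), against 48.8% of all genes.

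MRPS25 rose by 0.65 ± 0.15 in embryoid bodies (adjusted p = 0.0156) and MRPL42 by 0.61 ± 0.15 (adjusted p = 0.0185), with values for all arrays given above. MRPL46, a large-subunit protein specific to mitochondria, read 10.59, 10.57 and 10.51 in hESC and 11.05, 11.07 and 11.09 in embryoid bodies. The embryoid body arrays were nearly equal and above all hESC arrays. MRPL46 rose by 0.51 ± 0.10 (adjusted p = 0.00861). MRPL30, which has a bacterial relative, read 9.36, 9.29 and 9.56 in hESC and 9.88, 9.93 and 9.98 in embryoid bodies and rose by 0.53 ± 0.10 (adjusted p = 0.00746). MRPL46 and MRPL30 were the 2 genes of 17 whose call held without any array.

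The mitochondria-specific MRPL48 rose by 0.56 ± 0.14 (adjusted p = 0.0245), MRPL15 by 0.54 ± 0.16 (adjusted p = 0.0461), and MRPL47, related to a bacterial protein at the tunnel exit, by 0.50 ± 0.13 (adjusted p = 0.0249). MRPL40 read 9.43, 9.57 and 9.57 in hESC, 9.98, 10.04 and 10.02 in embryoid bodies and 10.21, 9.89 and 10.18 in progenitors. It was higher in both later groups than in hESC, and rose by 0.50 ± 0.11 in embryoid bodies (adjusted p = 0.0126). All these rises missed the threshold with median scaling, where the changes of the genes named here were 0.31 for MRPS25, 0.29 for MRPL42, 0.18 for MRPL46 and 0.18 for MRPL30. MRPS6 fell by 0.34 ± 0.10 (adjusted p = 0.0437) and by 0.55 with median scaling (adjusted p = 0.00733).

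Counts for this comparison moved with single arrays, over all genes as well as the members. Without embryoid body array 2, 2 members rose, and 11.2% of all genes were called in either direction, against 21.7% with all arrays. Without progenitor array 2, which enters only through the shared spread, 29 members rose, and 34.6% of all genes were called. With the near-identical arrays averaged, 0 of all 11991 genes were called in limma, and so 0 members, with 0 members at an unadjusted p under 0.05 and a lowest adjusted p of 0.646. Among the 3 groups, 56 of 76 members differed by limma's F-test (73.7%, against 75.4% of all genes).

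Progenitor array 2 was the lowest progenitor array for 64 of the 76 members (84.2%), against 42.2% of all genes. Other mitochondrial lists differed in this share. It was 84.6% of 13 genes for transcription and maintenance of mitochondrial DNA, 81% of 21 for the import machinery and 80% of 15 for translation factors. Lower shares were 60% of 15 transfer RNA synthetases, 57.5% of 73 oxidative phosphorylation subunits and 55.6% of 9 biogenesis regulators. For mitoribosome assembly it was 45.5% of 22 genes, and for cytosolic ribosomal proteins 43.7% of 71. The median difference of progenitor array 2 from the mean of arrays 1 and 3 was -0.25 over the members and 0.00 over all genes. The largest such differences were -0.83 for MRPL12, -0.81 for MRPL52, -0.81 for MRPL35 and -0.75 for MRPL18, and MRPS25 differed the other way by 0.50. MRPL35 and MRPL18 were named after their values were seen. On progenitor array 2, the summed log2 level of 2 endothelial markers was 19.9, against 17.3 and 17.7 on progenitor arrays 1 and 3, 18.4 to 18.9 in hESC and 16.8 to 16.9 in embryoid bodies. These 2 markers, the ones tested of 4 listed, went opposite ways from hESC to progenitors, by -1.33 and 1.03. Only the fall passed the test, so their sum does not stand for a shared change. The sum of 6 perivascular markers on progenitor array 2 was 86.0, against 84.2 and 84.5, with 50.5 to 52.3 in hESC and 52.1 to 52.7 in embryoid bodies. The part of these markers in the members' values was not tested.

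**Figure D4:**
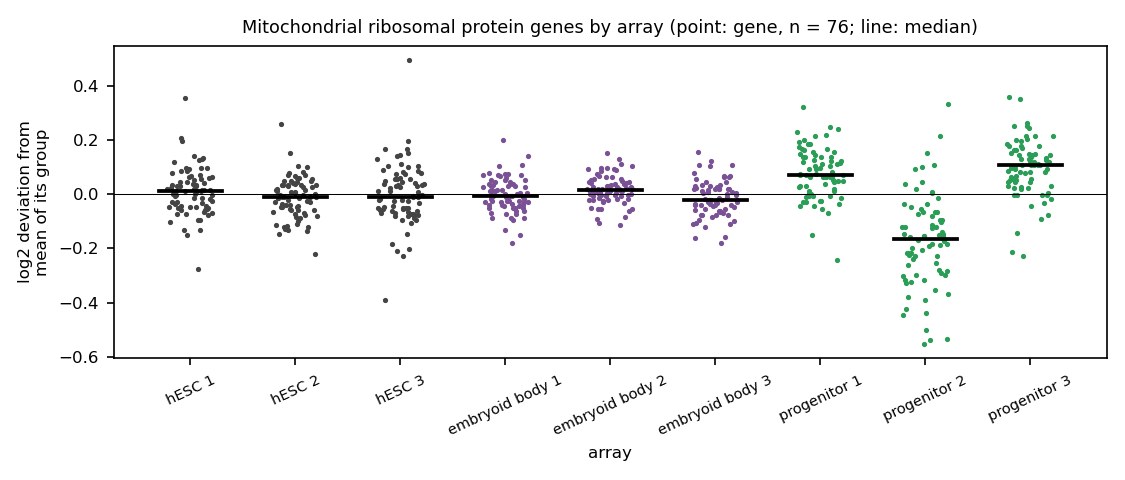
Deviation of each of the 76 mitochondrial ribosomal protein genes (points) from the mean of its group on the log2 scale (y axis), by array (x axis), with the median as a line. The points of progenitor array 2 lie mostly below 0 while the 3 hESC and 3 embryoid body arrays centre near 0, and array 2 was the lowest of its group for 64 genes.

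Beyond the named ribosomal proteins, other genes of mitochondrial translation were examined as lists, again beside 37.5% of all genes called lower and 30.9% called higher from hESC to progenitors. Of 3 mitoribosome proteins without an MRP symbol, DAP3, a GTP-binding protein of the small subunit, averaged 11.1 ± 0.06 in hESC, 11.8 ± 0.02 in embryoid bodies and 11.8 ± 0.32 in progenitors (SD, n = 3). DAP3 rose by 0.73 ± 0.15 from hESC to progenitors (adjusted p = 0.00169). CHCHD1 fell by 0.52 ± 0.11 (adjusted p = 0.00231). GADD45GIP1 was not well above background on any progenitor array and was at least 1.19-fold lower there (adjusted p = 0.00799). Such bounds set the hESC mean against the lowest detected signal of each progenitor array.

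Mitochondrial translation factors showed 6 falls (40%, near the share over all genes) and 2 rises (13.3%) among 15 genes from hESC to progenitors, with a median of -0.24. GTPBP3, which modifies mitochondrial transfer RNA, fell by 1.31 ± 0.10 (adjusted p = 4.62e-06), while the initiation factor MTIF3 rose by 0.48 ± 0.11 (adjusted p = 0.00327). Of 22 genes of mitoribosome assembly and ribosomal RNA modification, 15 fell (68.2%) and 1 rose (4.55%), with a median of -0.65. At least 2-fold, 5 of the 22 fell, near the 19.1% of all genes called lower by that much. The helicase DDX28 fell by 1.31 ± 0.10 (adjusted p = 4e-06) and MPV17L2 by 1.27 ± 0.11 (adjusted p = 7.84e-06). MTG1, a GTPase of large-subunit assembly, was not well above background on any progenitor array and was at least 2.37-fold lower (adjusted p = 2.45e-06). The methyltransferase METTL15 rose by 0.87 ± 0.10 (adjusted p = 5.61e-05).

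Genes that transcribe and maintain mitochondrial DNA fell in 12 of 13 cases (92.3%), with a median of -1.14. At least 2-fold, 8 of the 13 fell, against 19.1% of all genes called lower by that much. TWNK, the mitochondrial helicase, fell by 1.97 ± 0.20 (adjusted p = 2.34e-05) and MGME1, an exonuclease, by 1.42 ± 0.09 (adjusted p = 1.17e-06). TFAM, which packages mitochondrial DNA and activates its transcription, fell by 1.41 ± 0.13 (adjusted p = 1.18e-05). Cytosolic ribosomal proteins had 8 rises and 8 falls among 71 (11.3% each) and a median of -0.05. Nuclear subunits of oxidative phosphorylation had 20 rises (27.4%) and 27 falls (37%) among 73 and a median of -0.04. From hESC to embryoid bodies these lists had 14 rises (19.7%) with 1 fall and 19 rises (26%) with 2 falls, against 10.7% of all genes called higher, with medians of 0.15 and 0.16. The difference between lists was not tested.

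**Figure D5:**
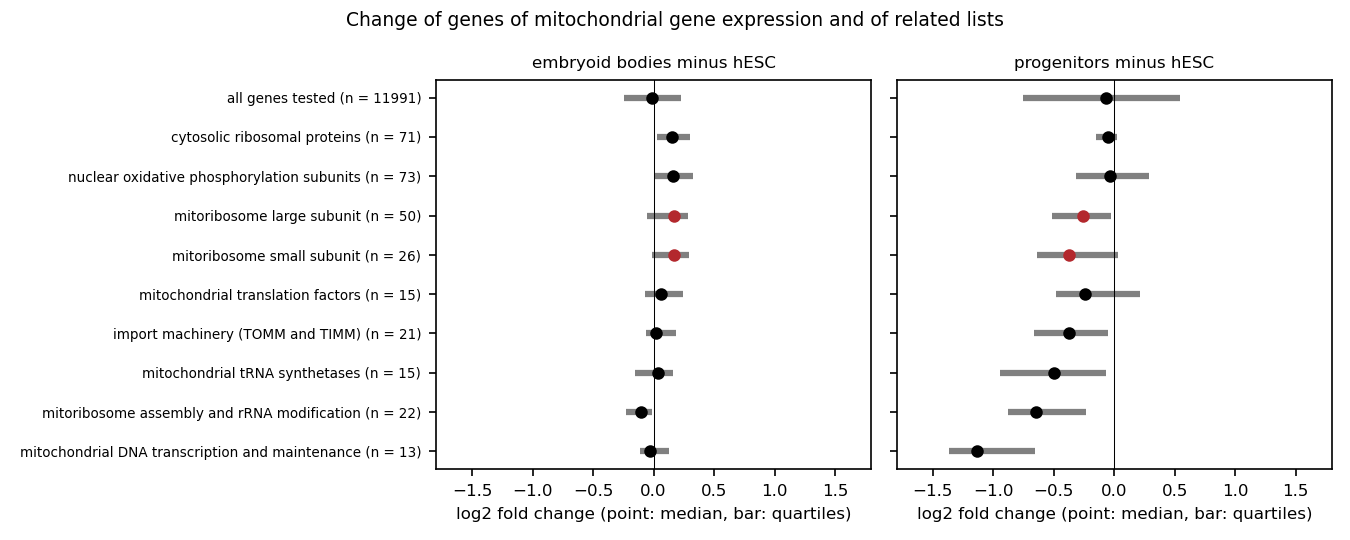
Median (point) and quartiles (bar) of the log2 fold change (x axis) for the mitoribosome subunits (red), other lists and all genes tested (black), in embryoid bodies minus hESC and in progenitors minus hESC. In the right panel the medians run from -0.04 for oxidative phosphorylation subunits and -0.05 for cytosolic ribosomal proteins, over -0.26 and -0.37 for the large and small subunit, to -1.14 for mitochondrial DNA transcription and maintenance; in the left panel the medians lie near or above 0 in these quantile-normalized values, where the median of all genes is -0.01; with median scaling it is -0.28 and that of the members -0.16.

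Different probes of a gene mostly gave the same sign; adjusted p-values of further probes come from the same model fitted over all probes with a single gene name, with no detection filter. Of 23 members with several probes, all probes shared the sign of the change in 17 genes for progenitors minus hESC, in 19 for progenitors minus embryoid bodies and in 19 for embryoid bodies minus hESC. MRPS33 and MRPL35 were named here after their values were seen. For MRPS33 the chosen probe gave 0.06 (adjusted p = 0.638) from hESC to progenitors and a dim probe, detected on 6 arrays, gave 1.36 (adjusted p = 0.000262). For MRPL35 the chosen probe gave -0.04 and the other probes -0.48 and -0.49.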

How the data were processed

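Total RNA of 9 samples was measured on Illumina BeadChips. The deposited table holds, per probe and array, a bead intensity on the linear scale, not background subtracted (median 154.8 to 177.9 per array), and a detection p-value in steps of 1 in 770, as the values of the deposited file show. A second deposited table gives log2 values for 20127 probes, with an equal median of 8.67 on every array. BeadStudio is named in the submitters' processing notes. For its version, background correction and genome build, the sources used here give nothing. Precision is limited by the small number of arrays.

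Symbols came from the platform annotation, updated through gene identifiers: 15592 probes had 1 symbol, 4 had several, and 4531 were not listed. limma 3.58.1 in R 4.3.3 applied neqc (normexp, negative controls inferred from detection p-values, offset 16, quantile normalization, log2). Probes detected (p under 0.05) on at least 3 of 9 arrays were kept, 1 per gene. A single fit by lmFit and eBayes held all 9 arrays, with group as the only term and 6 residual degrees of freedom. Tests were two-sided, with Benjamini-Hochberg adjustment over 11991 genes. A gene rose or fell at an adjusted p under 0.05. Errors of changes are SE of the fit.

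Members and gene lists were chosen with earlier results of these data known. Named genes are up to 8 of the largest rises and up to 8 of the largest falls per comparison, with groups that do not overlap. Others are 11 fixed members, of which MRPS36 was not analysed here. The rest are 3 genes with the highest and 3 with the lowest mean, and up to 3 genes per list. The fit was tested on simulated data. Alternatives were the authors' log2 values, no background correction, median scaling, other filters, the mean of all probes, a replicate block, array weights, averaged arrays and each array left out. After seeing the data, a fit without hESC array 3 and progenitor array 2 was added. Figures were drawn with matplotlib 3.10.9.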

Additional observations from a re-analysis of the deposited data

How the results depend on the processing

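The processing changed mainly the comparison of embryoid bodies with hESC. Median scaling moved the median of all genes from -0.01 to -0.28 and with it the members' median from 0.17 to -0.16, so that the members stayed above all genes, by 0.18 and 0.13. On that scale 0 members rose and 17 fell, 1 of the 17 calls in the quantile-normalized values being kept, and 38.6% of all genes were called, against 21.7%. In the same comparison, array weights gave a median of 0.14 with 33 rises and 6 falls (48.5% of all genes called), and leaving out hESC array 3 and progenitor array 2, a choice made after seeing the data, gave 0.14 with 31 rises and 3 falls (44.8% of all genes called). Averaging near-identical arrays, which left 5 columns and 2 residual degrees of freedom, gave 0 calls among all 11991 genes in limma, thus 0 rises and 0 falls among the members, with 0 members at an unadjusted p under 0.05. With single arrays left out, the median was 0.14 to 0.18, with 2 to 29 rises (2 without embryoid body array 2, where 11.2% of all genes were called, and 29 without progenitor array 2, where 34.6% were) and 0 to 4 falls.

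From hESC to progenitors, 5 genes rose with median scaling, 14 with array weights, 14 without both divergent arrays and 2 with averaged arrays, where 18 fell. Of all genes, 68.7%, 77.4%, 73.9% and 47.4% were called in either direction in these fits, in that order. Single arrays left out gave 7 to 11 rises, 33 to 39 falls and medians of -0.33 to -0.24. Calls lost without some array were those of MRPL1, MRPL10, MRPL12, MRPL14, MRPL45, MRPS18A, MRPS18B, MRPS18C, MRPS22 and MRPS23. From embryoid bodies to progenitors, 13 rose with array weights and 2 with averaged arrays, where 17 fell, and single arrays left out gave 6 to 10 rises, 41 to 45 falls and medians of -0.45 to -0.35. Over all genes, 79.1% were called with array weights, 36.8% with averaged arrays and 63.2% to 71.2% with single arrays left out. The F-test counted 18 genes with averaged arrays and 52 to 62 with single arrays left out. For the F-test in these fits the share over all genes was not counted, so these counts are not read as results about the members. With all arrays it was 73.7% of the members and 75.4% of all genes. The authors' log2 values, no background correction, the other filters and the mean of all probes kept all these counts within 1.5 times. With median scaling the falls numbered 46 from hESC to progenitors and 37 from embryoid bodies to progenitors. In these fits 68.7% and 67.1% of all genes were called in either direction. This order of counts was opposite to that of 40 and 46 in the quantile-normalized values. The member medians relative to all genes kept their order, at -0.16 and -0.24 with median scaling and -0.21 and -0.31 in the quantile-normalized values. Where a result moved, the cause was not tested.

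Arrays of different groups with the same replicate number correlated, after removing group means, at -0.12 to 0.06, so the numbers were not taken as pairs. A fit with the replicate block gave 9 rises and 0 falls in embryoid bodies against hESC, 37 falls and 8 rises from hESC to progenitors, 43 falls and 8 rises from embryoid bodies to progenitors, and 55 genes by the F-test, with the medians as before. That fit called 16.3%, 66.5% and 67.1% of all genes in these comparisons, in that order. For its F-test the share over all genes was not counted.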

Other observations

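Members of other mitochondrial gene groups were also counted from hESC to progenitors, where 37.5% of all genes were called lower and 30.9% higher. Of 21 genes of the import machinery of the outer and inner membrane, 13 fell (61.9%) and 4 rose (19%), while 4 missed the threshold, with a median of -0.37. TIMM8A, a chaperone of the intermembrane space, fell by 2.11 ± 0.20 (limma adjusted p = 1.57e-05), TIMM10, of the same family, by 1.74 ± 0.28 (adjusted p = 0.000412), and TOMM40, the channel of the outer membrane, by 1.35 ± 0.25 (adjusted p = 0.00117). Of 15 mitochondrial transfer RNA synthetases, 9 fell (60%) and 2 rose (13.3%), while 4 missed it, with a median of -0.50. MARS2 fell by 1.59 ± 0.13 (adjusted p = 6.91e-06) and NARS2 by 1.34 ± 0.13 (adjusted p = 1.48e-05), whereas CARS2 rose by 1.16 ± 0.09 (adjusted p = 4.64e-06).

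Among 9 regulators of mitochondrial biogenesis, 5 fell (55.6%) and 0 rose in limma, and 4 missed the threshold. The coactivator PPRC1 fell by 1.64 ± 0.13 (adjusted p = 3.89e-06). PPARGC1B was not well above background on any progenitor array and was at least 1.6-fold lower there (adjusted p = 3.34e-06). MYCN, a transcription factor of pluripotent and neural cells, was at least 130-fold lower in progenitors (adjusted p = 2.46e-10) and was likewise not well above background there.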
